A study of Mus musculus with 14 samples.

Results

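The W6 genes are the 100 genes whose RNA stood highest at week 6 (W6) of SOX9 induction in mouse epidermal stem cells (EpdSCs), of 13005 genes that had a symbol and averaged 1 TPM or more over 10 libraries. TPM is the abundance of a gene's transcripts per unit of length, relative to a fixed total in each library. Each gene was scored by the lower of its 2 W6 values of log2(TPM + 1) minus the highest of its means at the other 4 timepoints, and the 100 highest scores were taken. The W6 values therefore chose these genes, and every difference between W6 and another timepoint is given for them as a description, without a test.

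The cells came from CD1 mice labelled male that carried a Krt14-driven rtTA and a TRE-myc-Sox9 transgene, so that doxycycline (DOX) switched on MYC-tagged SOX9 in the skin epithelium. D0 mice were 21 days old and had no DOX, and the W1, W2 and W6 mice were 28, 35 and 63 days old after 1, 2 and 6 weeks of DOX. W12 cells came from newborn skin of these mice that was grafted onto female immunocompromised Nude hosts before 12 weeks of DOX, since mice that were not grafted were not kept past W6. All cells were sorted for high CD49f and Ly6A without CD34 and without endothelial, haematopoietic, melanocyte and fibroblast surface markers, with 2 replicates per timepoint. Age and time on DOX rose together up to W6, so they cannot be told apart, and neither can grafting and 12 weeks of DOX. RNA of age-matched mice without DOX was not analysed here.

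SOX9 is a transcription factor of hair follicle stem cells and of the outer root sheath (ORS) of the follicle, and the adult epidermis between follicles normally lacks it. Epidermal cells that keep SOX9 on leave the epidermal programme, divide and grow down into the dermis, and SOX9 is known as a mark of basal cell carcinoma. DNA replication needs the MCM helicase, polymerase α and clamp loaders among other factors, and division then needs the mitotic kinases and the condensin complex.

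The transgene was listed at 89.6 and 45.6 TPM in the D0 libraries. It was highest at W1 (3387 and 3414 TPM) and lower at W2 (1892 and 1469), W6 (1108 and 859) and W12 (606 and 903). All 9 markers of interfollicular EpdSCs were detected, with summed levels between 35462 and 60802 TPM in every library. The W6 libraries had the lowest sums (35462 and 36289 TPM), and 8 of the 9 were lower at W6 than at D0 by limma, where 14.1% of all genes tested were. The summed markers of the ORS were highest at W6 (18290 and 8545 TPM, against 1609 to 7046 TPM elsewhere), with Krt17 the main part. The 11 others summed to 6730 and 2530 TPM at W6, so that W6 replicate 2 was below both W2 libraries (3340 and 4110 TPM). By limma 5 of these 12 were higher than at D0, where 18.3% of all genes were. Markers of suprabasal keratinocytes summed to 11990 and 12625 TPM at W6, 2272 to 7684 TPM from D0 to W2, and 13637 and 11988 TPM at W12. By limma, 4 of these 9 were higher and 2 lower at W6 than at D0, where 18.3% of all genes were higher and 14.1% lower. Neutrophil markers summed to 160 and 87.4 TPM at W6, 1.62 to 22.5 TPM from D0 to W2, and 1103 and 1133 TPM at W12, and those of T and NK cells to 138 and 263 TPM, 29.2 to 114 TPM, and 182 and 194 TPM. A few genes carried these sums, as 4 of 9 neutrophil markers and 7 of 10 of T and NK cells were below 1 TPM in every library. The part of these marker lists in the W6 values was not tested. D0 replicate 2 stood apart. Its Xist level was 4.61 TPM and its Ddx3y level, from the Y chromosome, 0.0278 TPM, where D0 replicate 1 had 0.00103 and 32.1 TPM. It so went against its label. Counts of the W6 genes against D0 are given with and without it, as are single changes whose call is lost without it. Both W12 libraries also held Xist (5.51 and 3.5 TPM) beside Ddx3y, and there the summed markers of macrophages (187 and 447 TPM), endothelium (73.4 and 155 TPM) and red blood cells (432 and 463 TPM) were well above those at W6 (6.29 and 7.19, 1.01 and 2.89, and 18.1 and 12.5 TPM). Of 10 macrophage markers, 8 were below 1 TPM in every library, so few genes carried that sum. Of 7 mast cell markers, 3 were at 0 in every library. In bulk samples of this kind, more RNA per cell and more cells of a type cannot be told apart. TPM carry no depth, so the depth behind each value is unknown.

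The 100 W6 genes fell into 9 groups by known role, which were set after their values were seen. Signalling and transcription held 12 genes, transport 8, lipid, retinoid and redox metabolism 13, DNA replication and repair 11, mitosis and the cell cycle 10, chromatin and histones 5, satellite-like gene models 8, other coding genes 15, and non-coding RNAs and pseudogenes 18. Of the 100, 82 were annotated as protein-coding (82.0%, against 89.3% of the 13005 genes) and 8 as pseudogenes (8.0% against 4.08%). Their mean TPM summed to 5967 at W6, against 1848 at D0, 1915 at W1, 2405 at W2 and 2595 at W12.

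How far the genes stood out at W6 differed widely. The mean at W6 was 1.59 to 40.3 times that of the next highest timepoint, with a median of 2.16 times. The next highest timepoint was W12 for 48 genes, W2 for 30, D0 for 12 and W1 for 10. In 4 of them, Gm22123, Gm6863, Gm11007 and Gm4294, another single library reached or passed the lower W6 value, and these 4 were listed at 0 in several libraries and at 5 TPM or more in others. For 16 genes the mean over the 8 other libraries was below 1 TPM, so that they passed the filter on low values only through W6. Replicate 1 was the higher W6 library for 49 genes and replicate 2 for 51. At the edge of the list, Slc25a35, Gm11222 and Zfp692 were just inside with scores of 0.64, 0.64 and 0.63, and Krt17, Pold2 and Begain just outside with 0.63 each. Krt17, an ORS and wound keratin, was at 11556 and 6011 TPM at W6 and at 3309 and 4545 TPM at W12, and Pold2, a subunit of DNA polymerase δ, at 86.8 and 79.6 TPM and 33.1 and 51.3 TPM.

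**Figure D1:**
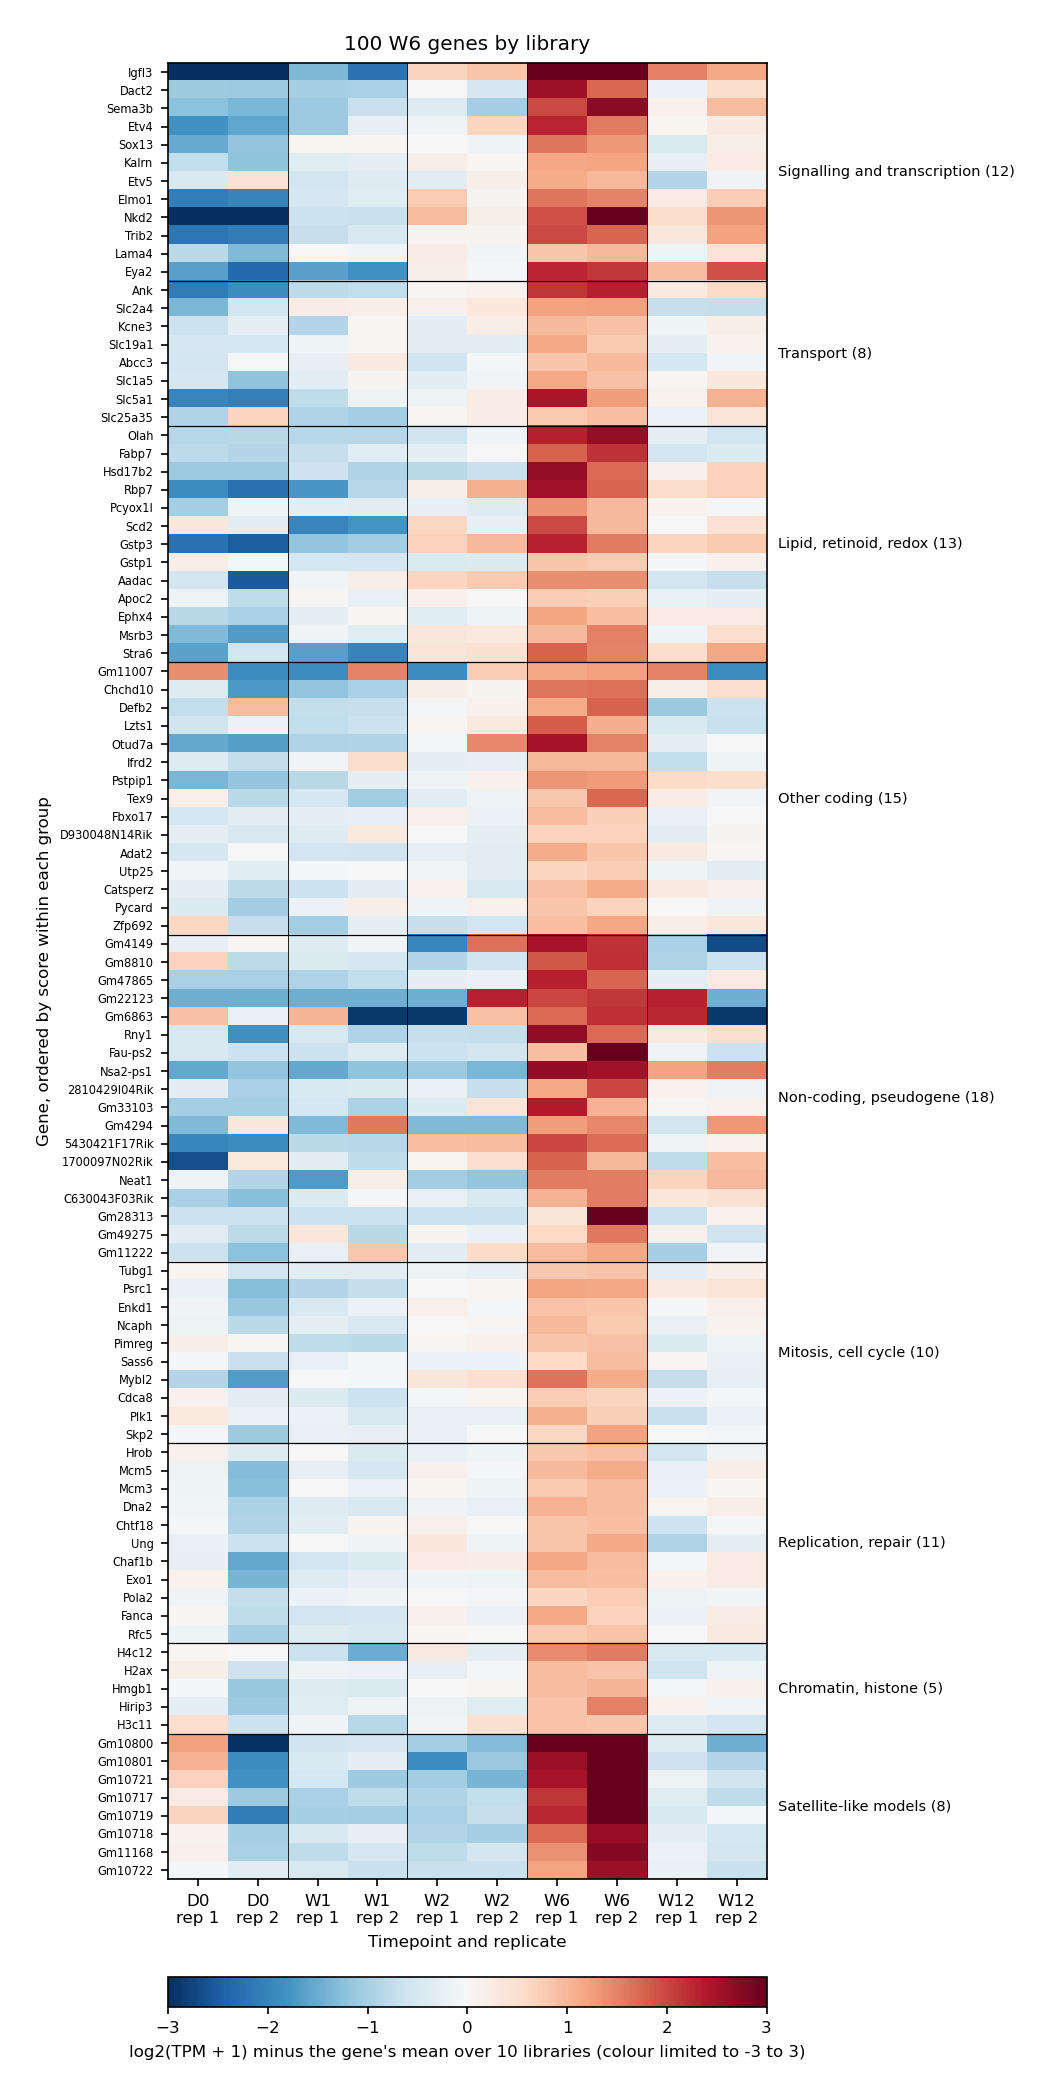
Heat map of the 100 W6 genes (rows, grouped by role and ordered by score) in the 10 libraries (columns, 2 replicates per timepoint). Colour is log2(TPM + 1) minus the gene's mean over the libraries, limited to the range from -3 to 3. Most signalling genes were lowest at D0 and partly raised at W2 and W12, whereas most replication and mitosis genes were near their mean at every timepoint but W6, with D0 replicate 2 below it.

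Most of the signalling and transcription genes were higher than D0 at W2 and W12 as well as highest at W6. The W6 genes were also compared between W1, W2 or W12 and D0, with limma on log2(TPM + 1) over all 13110 genes that averaged 1 TPM or more, with Benjamini-Hochberg adjustment. The 3 comparisons share the D0 libraries. The score subtracted the highest mean of D0, W1, W2 and W12 and so bounds every value compared here, and the counts below are a description of the W6 genes. A gene was called at an adjusted p under 0.05. At W1, 15 of the 100 were called, where 9.89% of all genes tested were, and 12 of them were higher (5.79% of all genes) and 3 lower (4.1%). At W2, 22 were called (15.7% of all genes), 21 higher (9.06%) and 1 lower (6.64%). At W12, 31 were called (43.0% of all genes), all 31 higher (17.9%) and 0 lower (25.1%), with 1 lower at an unadjusted p under 0.05 by limma. Without the 16 genes that passed the filter only through W6, 12, 21 and 28 of 84 were higher and 3, 1 and 0 lower, since Dact2, Hsd17b2 and Gm47865 were among the 31. The median log2 change of the 100 genes was 0.23 at W1, 0.45 at W2 and 0.50 at W12, against 0.09, 0.06 and -0.08 over all genes tested.

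**Figure D2:**
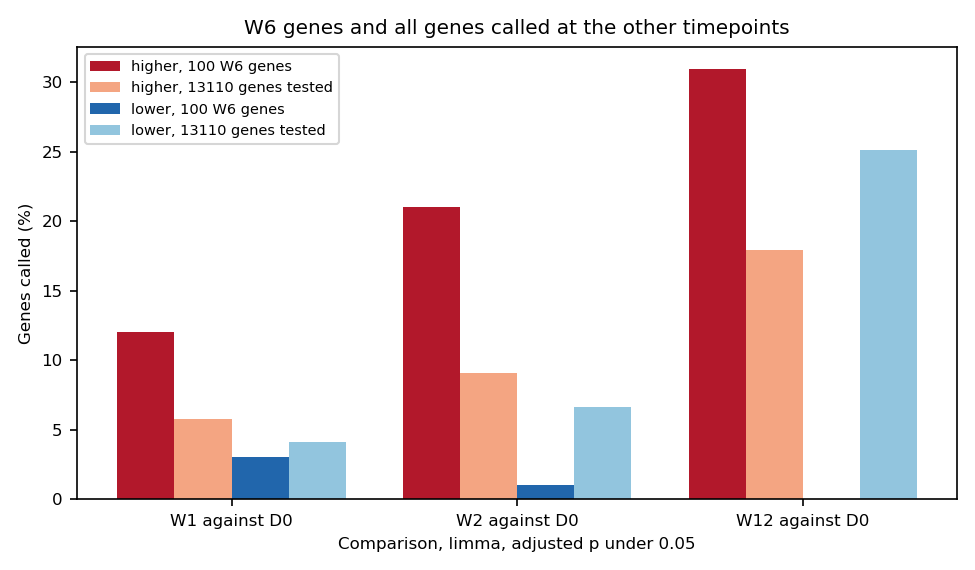
Bars give the percentage of the 100 W6 genes and of all 13110 genes tested that were called higher or lower than D0 at W1, W2 and W12 (limma, adjusted p under 0.05). At W12, 31.0% of the W6 genes and 17.9% of all genes were higher, and 0.0% and 25.1% were lower; of the 84 W6 genes that passed the filter on low values without W6, 33.3% were higher.

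D0 replicate 2 affected these counts. Without it, 7 were higher and 5 lower at W1, 19 and 6 at W2, and 26 and 3 at W12. Without D0 replicate 1 instead, 23 were higher and 5 lower at W1, 36 and 0 at W2, and 47 and 1 at W12. A lone D0 library is then assumed to vary as the other timepoints do. Of the 100, 63 were called in none of the 3 comparisons, 10 were higher in all of them, 8 were higher at W2 and W12, and 13 were higher at W12 alone. Without D0 replicate 2 the genes in these sets changed, as some calls were lost and others gained. The 10 higher throughout were Igfl3, Ank, Sox13, Elmo1, Nkd2, Trib2, 5430421F17Rik, Lama4, Gstp3 and Msrb3. Without D0 replicate 2, 4 of these lost the call at W1, namely Igfl3, Gstp3, Msrb3 (1.08 ± 0.33, adjusted p = 0.0932, limma) and Lama4 (0.79 ± 0.30, adjusted p = 0.157), and Lama4 lost it at W2 and W12 as well (adjusted p = 0.101 and 0.0516).

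Of the 11 signalling and transcription genes other than Dact2, 6 were called higher than D0 at W1, 9 at W2 and 10 at W12 (5.79%, 9.06% and 17.9% of all genes), and 0 lower. Their median log2 change was 1.04, 1.96 and 1.85, and without D0 replicate 2 the numbers called higher were 4, 7 and 8. Igfl3 encodes a secreted protein of the IGF-like family and lies at chr7:18176494-18181862 (GRCm38). It was at 2.01 and 0.17 TPM at D0, 11.8 and 5.97 at W1, 51 and 57.3 at W2, 624 and 338 at W6, and 92.2 and 71.1 at W12. Each later library was above both D0 libraries, and both W6 libraries were several times above every other. Its log2 change from D0 was 2.33 ± 0.47 (SE) at W1, 4.88 ± 0.47 at W2 and 5.45 ± 0.47 at W12, with adjusted p of 0.0167, 0.000466 and 7.5e-05 (limma). At W1 it was 1.65 ± 0.44 without D0 replicate 2 and was not called (adjusted p = 0.0647).

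The promoter of Igfl3 is shown because this gene had the largest log2 change of the W6 genes at W2 and W12, with 250 bases before and 50 after the start in RefSeq (GRCm38.p6, chr7:18176244-18176543, plus strand). Capitals mark a match to TATAAA, the TATA box, and one to ACAATG, a core bound by SOX factors.

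Igfl3: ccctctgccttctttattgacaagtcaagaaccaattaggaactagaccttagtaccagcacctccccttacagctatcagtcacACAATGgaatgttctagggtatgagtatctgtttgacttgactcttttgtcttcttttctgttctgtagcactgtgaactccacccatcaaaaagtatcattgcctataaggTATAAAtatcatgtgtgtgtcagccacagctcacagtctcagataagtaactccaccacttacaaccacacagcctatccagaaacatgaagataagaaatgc

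The TATAAA match starts at base 198 and the ACAATG match at base 86 of the 300. A match is a run of letters and not a shown site.

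Nkd2 and Dact2 both restrain WNT signalling. Nkd2 encodes a Dishevelled-binding antagonist of WNT (chr13:73818534-73847631), and was at 0.403 and 0.206 TPM at D0, 7.57 and 7.39 at W1, 24.7 and 14.1 at W2, 49.9 and 114 at W6, and 18.4 and 32.7 at W12. It rose at W1 by 2.70 ± 0.42, at W2 by 3.92 ± 0.42 and at W12 by 4.30 ± 0.42 on the log2 scale (adjusted p = 0.00512, 0.00069 and 0.000132, limma). Dact2, another Dishevelled-binding antagonist, stayed at or below 1.31 TPM up to W2, reached 12.3 and 6.53 TPM at W6 and was at 1.04 and 2.32 TPM at W12. It passed the filter on low values only through W6, so its change at W12 is left out of the counts of this group. Among 22 tested genes of a WNT list, none of them a W6 gene, 4 were higher and 14 lower at W6 than at D0, where 32.4% of all genes tested were called, 18.3% higher and 14.1% lower. Without D0 replicate 2, 4 were higher and 9 lower than at D0. Against W12, 6 were higher and 2 lower, where 20.2% of all genes were called, 13.5% higher and 6.66% lower.

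Eya2, a transcriptional co-activator and phosphatase that acts with homeobox factors, rose from W2 on and was still near its W6 level in 1 of the 2 W12 libraries. It was at 1.01 and 0.251 TPM at D0, 1.01 and 0.779 at W1, 6.22 and 5 at W2, 29.3 and 26.2 at W6, and 10.9 and 22.9 at W12. Its log2 change was 2.05 ± 0.35 at W2 (adjusted p = 0.0056) and 3.41 ± 0.35 at W12 (adjusted p = 0.00017), both by limma. W12 replicate 2 was close to the W6 libraries, so that Eya2 had a mean at W6 of only 1.65 times that at W12. Trib2, a pseudokinase, went from 0.0107 and 0.0545 TPM at D0 to 1.78 and 2.3 at W1, 3.76 and 3.77 at W2, 16.8 and 14.2 at W6 and 4.72 and 9.35 at W12.

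The ETS factors Etv4 and Etv5, which respond to receptor tyrosine kinase signalling, took different courses. Etv4 was at 2.97 and 3.71 TPM at D0, 5.58 and 10.8 at W1, 12 and 21 at W2, 67.3 and 39.9 at W6 and 13.5 and 15.8 at W12, and was higher than D0 at W2 by 1.96 ± 0.36 (adjusted p = 0.00875, limma). Etv5 was at 10.1 and 19.4 TPM at D0, 7.19 to 16.2 at W1, W2 and W12, and 32 and 29.2 at W6, and was called in none of the comparisons. In the list of lineage transcription factors without these 2, 7 of 20 were higher and 6 lower at W6 than at D0, and 5 were higher and 3 lower at W6 than at W12, against 18.3% and 14.1% of all genes from D0 and 13.5% and 6.66% from W12. Sema3b, a secreted semaphorin, Sox13, a SOX family factor, Elmo1 and Kalrn, which act in RAC activation, and Lama4, a laminin chain, made up the rest of the group. Their W6 values ranged from 5.3 to 19.6 TPM and their D0 values from 0.214 to 1.19 TPM. The score selects for such a gap, and for 96 of the 100 W6 genes no other library reached the lower W6 value.

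**Figure D3:**
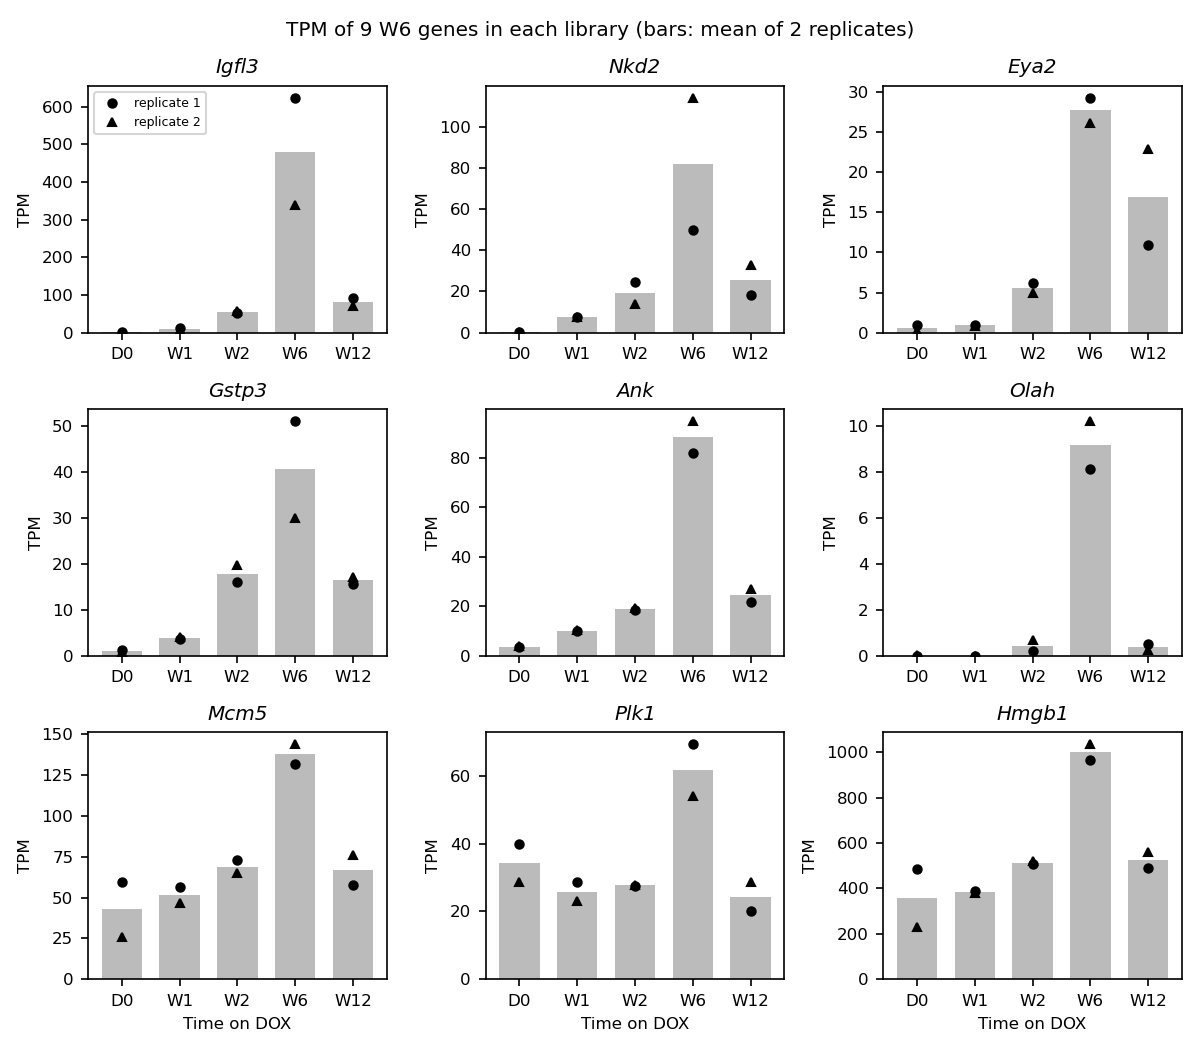
TPM of 9 W6 genes by timepoint, with bars for the mean and points for both replicates (circle, replicate 1; triangle, replicate 2). Igfl3, Nkd2, Eya2, Gstp3 and Ank were already above D0 at W2 and W12, Olah was below 1 TPM everywhere but at W6, and Mcm5, Plk1 and Hmgb1 were expressed throughout.

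Genes of lipid, retinoid and redox metabolism included coding genes that were almost absent outside W6. Olah, a thioesterase that releases medium-chain fatty acids, was at 8.13 and 10.2 TPM at W6 and at most 0.673 TPM in the 8 other libraries. Fabp7, a fatty acid-binding protein, was at 5.68 and 7.89 TPM at W6 and at most 0.985 TPM elsewhere. Hsd17b2, which oxidizes oestradiol and testosterone, was at 13.1 and 6.37 TPM at W6, at most 0.474 TPM up to W2, and at 1.53 and 2.65 TPM at W12. All 3 passed the filter on low values only through W6, and the call of Hsd17b2 at W12 counts among the 31 but not among the 28.

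Rbp7 and Stra6, of retinoid metabolism, were higher at W2 than at D0. A list of retinoid genes was not tested. Rbp7, a cellular retinol-binding protein, was at 0.583 and 0.239 TPM at D0, 0.759 and 2.26 at W1, 5.57 and 11.2 at W2, 32.7 and 18.7 at W6, and 7.45 and 8.47 at W12. It was higher than D0 by 2.68 ± 0.40 both at W2 and at W12 (adjusted p = 0.00345 and 0.00125, limma). Stra6, the membrane receptor for retinol-binding protein, was at 0.958 and 3.09 TPM at D0, 0.941 and 0.491 at W1, 6.82 and 7.3 at W2, 19.5 and 15.9 at W6, and 7.71 and 12.4 at W12, and was higher at W2 by 1.51 ± 0.36 (adjusted p = 0.0242, limma).

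Of the glutathione transferases, Gstp1 and Gstp3 lie 19492 bases apart on chromosome 19 and followed different courses. Gstp3 was at 1.25 and 0.921 TPM at D0, 3.66 and 4.16 at W1, 16.1 and 19.7 at W2, 51.2 and 30.1 at W6, and 15.7 and 17.2 at W12. Gstp1 was at 494 and 417 TPM at D0, 298 and 302 at W1, 316 and 321 at W2, 763 and 730 at W6, and 413 and 471 at W12. Gstp3 rose from W1 on, by 1.24 ± 0.25, 3.18 ± 0.25 and 3.07 ± 0.25 on the log2 scale (adjusted p = 0.018, 0.000193 and 6e-05, limma). The W1 change of Gstp3 was 1.12 ± 0.31 without D0 replicate 2 and was not called (adjusted p = 0.074). Gstp1 fell by 0.59 on that scale at W1 and by 0.51 at W2 (SE 0.14 each, adjusted p = 0.0279 and 0.0373, limma), calls that were lost under 8 and 11 of 18 alternatives, with adjusted p up to 0.166 and 0.189. Its W6 libraries were above both D0 libraries. As the pair are close paralogues, reads may have been split between them. In the list of NRF2 and xenobiotic genes, 10 of 18 were higher and 1 lower at W6 than at D0, and 3 were higher and 3 lower at W6 than at W12. The shares over all genes tested were 18.3% higher and 14.1% lower against D0, and 13.5% and 6.66% against W12.

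Scd2, a stearoyl-CoA desaturase, dipped first. It was at 28.5 and 18.2 TPM at D0, 5.04 and 5.91 at W1, 35.5 and 19 at W2, 93.1 and 45.8 at W6 and 22.7 and 30.9 at W12, with a log2 change of -1.88 ± 0.39 at W1 (adjusted p = 0.0188, limma). Aadac, an esterase, was at 25.2 and 5.69 TPM at D0, 59.2 and 65.2 at W2, 99.6 and 98.8 at W6, and 25.1 and 22.6 at W12. It was the only W6 gene called higher at W2 alone with all libraries, a call lost under 4 of 18 alternatives. Its log2 change at W2 was 2.26 with all libraries and 1.27 without D0 replicate 2. In the lipid synthesis list without Scd2, 6 of 19 were higher and 5 lower at W6 than at D0, and 6 were higher and 1 lower at W6 than at W12. Of all genes tested, 18.3% were higher and 14.1% lower than at D0, and 13.5% and 6.66% than at W12. With D0 replicate 2 left out, 3 were higher and 4 lower than at D0.

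Of the 8 transport genes, 7 passed the filter on low values without W6, all but Kcne3, a potassium channel subunit. Of these 7, 2 were called higher at W1, 3 at W2 and 3 at W12 (5.79%, 9.06% and 17.9% of all genes). Without D0 replicate 2, Slc5a1 lost its call at W2 and Slc1a5 at W12, while Slc25a35 gained a call at W2 and W12 and Slc2a4 at W12. Ank, a membrane protein needed for the export of pyrophosphate, was at 3.41 and 4.13 TPM at D0, 9.97 and 10.3 at W1, 18.7 and 19.4 at W2, 82 and 94.9 at W6, and 21.9 and 27.2 at W12. Its values stepped up at each timepoint to W6 with no overlap, by 1.23 ± 0.17 at W1 and 2.08 ± 0.17 at W2 from D0 (adjusted p = 0.00305 and 0.000219, limma). Slc5a1, a sodium-glucose co-transporter, was at 0.228 and 0.171 TPM at D0, 3.3 and 4.59 at W2, 25.4 and 10.4 at W6, and 4.22 and 8.92 at W12. Slc2a4, the insulin-responsive glucose transporter, was at 0.964 and 2.44 TPM at D0, between 4.67 and 5.42 at W1 and W2, 10.8 and 11 at W6, and 2.19 and 2.14 at W12. Its W12 libraries lay between the D0 libraries, and with D0 replicate 2 left out it was higher at W12 than at D0 by 0.69 ± 0.21 (adjusted p = 0.0465, limma). The amino acid carrier Slc1a5 and the folate carrier Slc19a1 were at 23.1 and 19.1 TPM and at 39.3 and 30.7 TPM at W6.

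The replication and division genes had another time course. They were expressed at every timepoint. Both W6 libraries were above all the others for each of the 26 genes of the replication, mitosis and chromatin groups. The same held for 96 of all 100 W6 genes, as the score selects for it. The 11 replication and repair genes summed to 213 and 103 TPM at D0, 194 and 183 at W1, 253 and 231 at W2, 449 and 468 at W6, and 207 and 260 at W12. D0 replicate 2 had the lowest sum of all libraries and D0 replicate 1 was within the range of the later ones. Of the 11, 0 were called at W1, 0 at W2 and 1, Chaf1b, at W12 (0.98 ± 0.35, adjusted p = 0.0475, limma; 0.34 ± 0.19 and 0.211 without D0 replicate 2). Before adjustment, 0, 3 and 3 had a p under 0.05, and these were higher. Without D0 replicate 2 no replication gene was called in any of the 3 comparisons and the median log2 changes were -0.24, 0.10 and 0.06, and without D0 replicate 1, 4, 7 and 7 were called higher.

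Mcm5 and Mcm3 are subunits of the MCM helicase that opens the DNA at origins. Mcm5 (chr8:75109569-75128439) was at 59.7 and 26.1 TPM at D0, 56.2 and 46.5 at W1, 72.8 and 64.9 at W2, 132 and 144 at W6, and 57.9 and 76.2 at W12. Mcm3 (chr1:20802968-20820312) was at 29.9 and 13.1 TPM at D0, 28.7 to 33.9 at W1 and W2, 57.1 and 64.1 at W6, and 28.6 and 34 at W12. The remaining 9 were Pola2 of polymerase α, the clamp-loader subunits Rfc5 and Chtf18, the histone chaperone subunit Chaf1b, the nucleases Dna2 and Exo1, the uracil glycosylase Ung, Fanca of the Fanconi pathway and Hrob, which recruits an MCM helicase to sites of repair. Their mean at W6 was 1.62 to 2.31 times that of the next highest timepoint over all 11.

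The other genes of DNA replication, which the score did not choose, were tested at W6. Of 18 such genes, 15 were higher and 0 lower at W6 than at D0, where 18.3% of all genes tested were higher, and 3 were higher and 0 lower at W6 than at W12 (13.5% of all genes). In the other direction 0 also had an unadjusted p under 0.05 in either comparison. Their median log2 change was 1.19 from D0, against 0.08 over all genes, and 0.39 from W12, against 0.16. The 3 higher than at both timepoints were Cdt1, which licenses origins, Uhrf1, which maintains DNA methylation, and Chaf1a, the partner of Chaf1b. Uhrf1 was at 36 and 19.8 TPM at D0, 81.1 and 66.2 at W6, and 21.8 and 29.4 at W12, a log2 change of 1.42 ± 0.27 from D0 and 1.50 ± 0.27 from W12 (adjusted p = 0.00516 and 0.00718, limma). Other MCM genes were nearer to the W12 level: Mcm6 differed by 0.73 ± 0.24 from W12 (adjusted p = 0.0654) and Mcm7 by 0.47 ± 0.19 (adjusted p = 0.112). Without D0 replicate 2, 8 of the 18 were higher at W6 than at D0, and without W6 replicate 2 also 8. Without W12 replicate 1, 0 were higher at W6 than at W12, and without W6 replicate 1 there was 1.

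**Figure D4:**
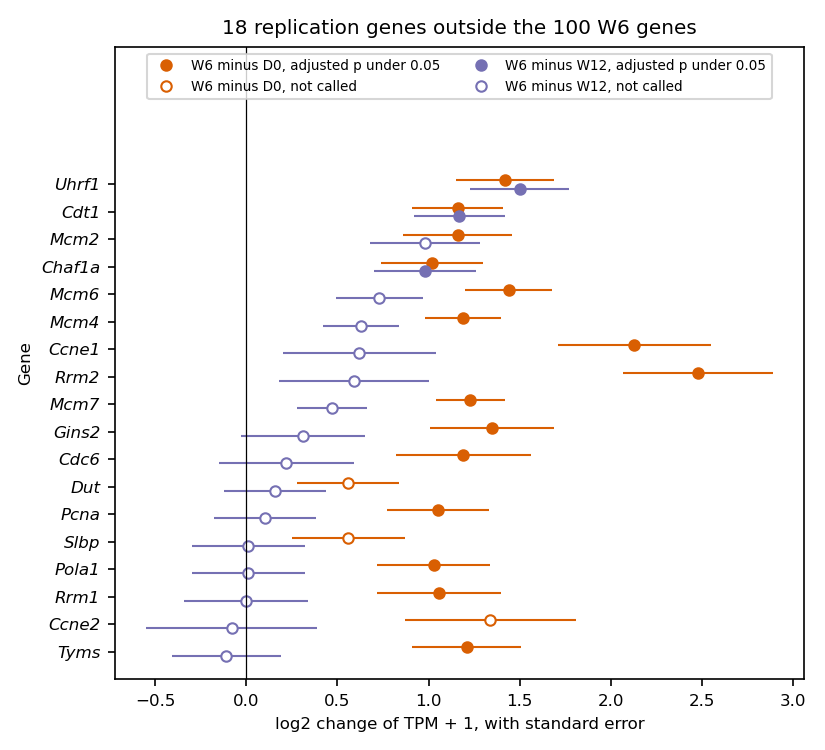
Log2 change of TPM + 1, with its standard error, for 18 DNA replication genes outside the W6 genes, at W6 against D0 (orange) and against W12 (purple). Filled points had an adjusted p under 0.05 by limma: 15 of 18 against D0, and 3 of 18, Uhrf1, Cdt1 and Chaf1a, against W12.

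The 10 mitosis and cell cycle genes summed to 259 and 173 TPM at D0, 189 and 177 at W1, 245 and 250 at W2, 492 and 464 at W6, and 214 and 262 at W12. Plk1, the mitotic kinase of spindle assembly (chr7:122159439-122169873), was at 40 and 28.5 TPM at D0, 28.5 and 23.1 at W1, 27.5 and 27.8 at W2, 69.3 and 54 at W6, and 20.1 and 28.6 at W12. Cdca8 of the chromosomal passenger complex was at 117 and 110 TPM at W6 and between 43.2 and 75.6 TPM elsewhere. Mybl2, a transcription factor of cell cycle genes, was at 5.99 and 3.01 TPM at D0, 11.2 to 17 at W1 and W2, 38.4 and 26.6 at W6, and 6.77 and 9.87 at W12, and rose by 1.23 ± 0.30 at W1 and 1.70 ± 0.30 at W2 (adjusted p = 0.034 and 0.00643, limma). The W1 call was lost under 9 of 18 alternatives, among them without D0 replicate 2 (0.83 ± 0.28, adjusted p = 0.122). Pimreg, a regulator of the metaphase to anaphase step, fell by 0.91 on the log2 scale at W1 (SE 0.15, adjusted p = 0.00735, limma). Tubg1, Psrc1, Enkd1 and Sass6 act at microtubules and centrioles, Ncaph is a condensin subunit and Skp2 marks cell cycle inhibitors for degradation.

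Outside the W6 genes, 5 of 21 mitosis genes were higher and 0 lower at W6 than at D0 (18.3% of all genes tested higher), with a median of 0.52, and 3 were higher and 0 lower than at W12 (13.5% higher), with a median of 0.34. The shares called higher were thus near those of all genes, and 0 were lower in either comparison at an unadjusted p under 0.05 too. Aurkb, the kinase of the passenger complex, was higher than at both timepoints, by 0.75 ± 0.21 and 0.96 ± 0.21 (adjusted p = 0.024 and 0.0147, limma). Mki67, a general mark of dividing cells, was at 25.4 and 10.7 TPM at D0, 23.4 and 29.1 at W6 and 21.3 and 17.8 at W12 and was not called. Without D0 replicate 2, 1 of the 21 was higher at W6 than at D0, and without D0 replicate 1, 13 were.

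Promoters of the replication and the mitosis group are shown for Mcm3, which holds GCGGGAA, and Plk1, which holds TTTGAA. These letters were each in only 4 of the 21 promoters of the replication, mitosis and chromatin groups. The Mcm5 promoter held CCAAT but not GCGGGAA and is not shown. Capitals mark GCGGGAA, a site of E2F factors, and CCAAT, the box bound by NF-Y, in the Mcm3 promoter (chr1:20820263-20820562, minus strand), and TTTGAA, the cell cycle homology element (CHR), and CCAAT in the Plk1 promoter (chr7:122159185-122159484, plus strand). Both are from RefSeq on GRCm38.p6 and run 5′ to 3′ on the strand of the gene, and capitals reading ATTGG are a CCAAT on the other strand.

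Mcm3: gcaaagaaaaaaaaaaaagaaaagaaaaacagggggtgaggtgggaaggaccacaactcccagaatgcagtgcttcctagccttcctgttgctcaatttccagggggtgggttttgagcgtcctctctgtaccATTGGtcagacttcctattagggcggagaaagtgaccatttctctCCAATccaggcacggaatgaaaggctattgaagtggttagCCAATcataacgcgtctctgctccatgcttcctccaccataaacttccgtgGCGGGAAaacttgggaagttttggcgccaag

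Plk1: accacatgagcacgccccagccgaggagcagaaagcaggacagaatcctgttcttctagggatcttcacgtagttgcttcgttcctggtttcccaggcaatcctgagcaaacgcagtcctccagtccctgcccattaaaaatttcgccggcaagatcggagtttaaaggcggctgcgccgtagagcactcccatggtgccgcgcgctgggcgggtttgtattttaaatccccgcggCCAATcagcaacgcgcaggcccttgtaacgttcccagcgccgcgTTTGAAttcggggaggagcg

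Promoters of 58 of the 100 W6 genes and of 9603 genes tested were matched by symbol, and both strands were searched. GCGGGAA was in 13.8% of the W6 genes' promoters and 8.63% of all, TTTGAA in 17.2% and 12.3%, and CCAAT in 37.9% and 39.4%. In the 21 promoters of replication, mitosis and chromatin genes the shares were 19.0%, 19.0% and 47.6%, that is 4, 4 and 10 promoters. The SOX cores ACAATG and ACAAAG were in 8.62% and 13.8% of the W6 genes' promoters, against 6.87% and 13.2% of all, the AP-1 site TGANTCA in 6.9% against 5.11% and TATAAA in 8.62% against 7.41%. These are shares of short letter runs and were not tested.

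Chromatin genes included some of the most abundant W6 genes. Hmgb1, an architectural DNA-binding protein, was at 487 and 230 TPM at D0, 389 and 378 at W1, 505 and 520 at W2, 967 and 1035 at W6, and 489 and 558 at W12. H2ax, the histone variant that is phosphorylated at DNA breaks, was at 127 and 72.4 TPM at D0, between 73.3 and 109 at W1, W2 and W12, and at 212 and 204 at W6. The linked histone genes H3c11 and H4c12 on chromosome 13 reached 20.9 and 20.8 TPM and 6.48 and 7.2 TPM at W6. Of the 5 chromatin genes 0 were called at W1, W2 or W12 by limma, and before adjustment 1 had a p under 0.05 at W1, where it was lower, and 0 at W2 and W12. Of 10 other histone genes, 3 were higher at W6 than at D0 by limma (18.3% of all genes) and 0 than at W12 (13.5%), where 0 were higher and 1 lower at an unadjusted p under 0.05. Leaving out D0 replicate 2 gave 1 histone gene higher than at D0, and leaving out D0 replicate 1 gave 6.

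The highest scores belonged to gene models that resemble satellite DNA. Gm10800, Gm10801, Gm10721, Gm10717, Gm10719, Gm10718, Gm11168 and Gm10722 lie in 2 clusters, Gm10800 and Gm10801 between 98662237 and 98667301 on chromosome 2 and the other 6 between 3000922 and 3033289 on chromosome 9. They shared at least 20% of their 25-base words with Gm10800, and 8 of the 9 tested models of that kind were among the 100. Models of this kind are known to hold copies of the major satellite, the tandem repeat of pericentromeric heterochromatin, and no repeat annotation was used here. Stretches of the chromosome 2 models are shown because they hold long runs of the same letters. The chromosome 9 models shared 22.0% to 31.1% of these words with Gm10800 and are not shown. The first is exon 2 of 5 of Gm10800 (chr2:98667079-98667228, minus strand) and the second lies in exon 1 of 4 of Gm10801 (chr2:98662351-98662500, plus strand), both 150 bases of coding annotation in GENCODE M21 on GRCm38. Capitals mark 25-base words found in both transcripts, on either strand.

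Gm10800: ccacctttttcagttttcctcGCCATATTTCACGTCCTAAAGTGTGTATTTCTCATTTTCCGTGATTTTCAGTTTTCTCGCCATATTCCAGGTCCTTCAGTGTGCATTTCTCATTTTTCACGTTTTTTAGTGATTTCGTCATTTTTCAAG

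Gm10801: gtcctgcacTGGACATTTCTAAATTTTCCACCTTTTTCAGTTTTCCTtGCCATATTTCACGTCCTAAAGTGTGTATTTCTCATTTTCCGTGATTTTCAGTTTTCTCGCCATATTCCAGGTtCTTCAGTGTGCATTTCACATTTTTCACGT

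The longest run shared by both transcripts was 86 bases. Reads from such copies may be split between models, so the values of a single model are uncertain and the sum is given first. The 10 models of this kind in the table summed to 47.4 and 0.64 TPM at D0, 11.6 and 12 at W1, 6.66 and 7.12 at W2, 170 and 363 at W6, and 15.4 and 9.98 at W12. The W6 libraries were above all others, the D0 libraries lay further apart as a ratio than any other pair, and each of the 8 was higher in W6 replicate 2 than in replicate 1. Gm10800 alone was at 83.3 and 169 TPM at W6, 24.1 and 0.361 at D0, and between 2.84 and 7.22 in the 6 remaining libraries. Of the 8, 4 passed the filter on low values only through W6, and 0 were called by limma at W1, W2 or W12, also 0 at an unadjusted p under 0.05. The direction turned with the D0 library kept: without D0 replicate 2, 0 were called at W1, 3 lower at W2 and 2 lower at W12, and without D0 replicate 1, 1 was called higher at W1, 1 at W2 and 3 at W12.

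The number of genes listed above 0 was also highest in the W6 libraries, at 28715 and 31239, and lowest in D0 replicate 2, and was 22033 to 27551 outside W6. Among the other 7 libraries the order differed: D0 replicate 1 had 25185 genes and 47.4 TPM of these models, and W12 replicate 1 had 27551 genes and 15.4 TPM. The part that the number of genes detected, or the depth behind it, has in the satellite-like values was not tested. The fibroblast markers differed between the W6 libraries, with a sum of 3.36 TPM in replicate 1 and 58.1 TPM in replicate 2, 51.2 of it from Dcn. They summed to 37.4 and 51.6 TPM at D0 and 30.8 and 43.1 TPM at W12. Their part in the satellite-like values was not tested.

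**Figure D5:**
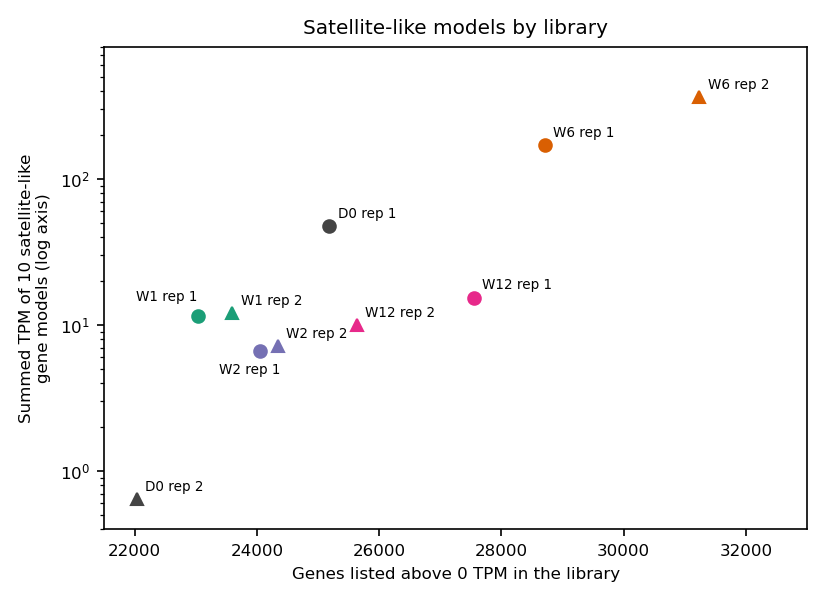
Summed TPM of 10 satellite-like gene models (log axis) against the number of genes listed above 0 TPM, one point per library (circle, replicate 1; triangle, replicate 2). Both W6 libraries are highest on both axes (170 and 363 TPM; 28715 and 31239 genes), and D0 replicate 2 is lowest on both.

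Of the 18 non-coding RNAs and pseudogenes, 12 passed the filter on low values without W6. Of these, 1 was higher at W1, 1 at W2 and 4 at W12, where 5.79%, 9.06% and 17.9% of all genes tested were, and without D0 replicate 2 the numbers were 1, 2 and 4. The pseudogene Gm4149 had 167 and 136 TPM at W6 and between 3.72 and 95.3 TPM elsewhere. Gm8810, a pseudogene, and Gm47865, a long non-coding RNA, were low throughout, with 6 and 7.84 TPM and 8.77 and 5.6 TPM at W6 and at most 2.11 and 1.32 TPM elsewhere. Neat1, the RNA scaffold of paraspeckles, was the most abundant, with 59.7 and 34.2 TPM at D0, 19 and 72.4 at W1, 30.6 and 27.7 at W2, 191 and 187 at W6, and 103 and 126 at W12. Rny1, a Y RNA bound by the Ro protein, was at 51.8 and 26.4 TPM at W6, 9.04 and 10.7 at W12 and at most 5.02 before W6. Nsa2-ps1, a pseudogene, was at 17.4 and 15.7 TPM at W6, 5.7 and 7.38 at W12 and at most 0.356 elsewhere, and its reads may be shared with its parent gene. Gm28313 on the Y chromosome was at 1.03 and 26.5 TPM at W6 and at 0 in every library before. It entered the list on replicate 1 and owes its 40.3-fold mean to replicate 2.

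Among the 15 other coding genes, Pycard, the adaptor ASC of inflammasomes, was the most abundant at 667 and 597 TPM at W6, against 279 and 180 at D0 and 331 to 429 at W1, W2 and W12. Chchd10, a mitochondrial protein of the cristae, was at 39.8 and 15.1 TPM at D0, 22.6 and 26.1 at W1, 60.4 and 55.3 at W2, 161 and 167 at W6, and 60.5 and 74.2 at W12. It was higher than D0 at W12 by 1.41 ± 0.35 and Pycard by 0.69 ± 0.22 (adjusted p = 0.0127 and 0.0349, limma). With D0 replicate 2 left out, the change was 0.74 ± 0.17 for Chchd10 (adjusted p = 0.0185) and 0.37 ± 0.19 for Pycard, which was then not called (adjusted p = 0.183). Defb2, a β-defensin, was at 5.97 and 9.86 TPM at W6, with 5.16 TPM in D0 replicate 2 and at most 2.51 in the other 7 libraries.

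Some W6 genes were neighbours. Besides the pairs above and the satellite-like clusters, Tubg1, Etv4 and Hrob, and also Slc25a35 and Slc2a4, lay within 1 Mb of the next on chromosome 11, Neat1 and Pola2 were 95064 bases apart on chromosome 19, Catsperz was 958169 bases from Pola2, Gm33103 and Lzts1 were 130986 bases apart on chromosome 8, and Ifrd2 and Sema3b were 4289 bases apart on chromosome 9. Ifrd2, a regulator of translation, was at 54.9 and 55.1 TPM at W6 and at 15.9 to 39.8 TPM elsewhere, and was called in none of the comparisons, whereas Sema3b was at 0.348 and 0.224 TPM at D0 and 2.46 and 5.09 TPM at W12 and was higher there by 1.84 ± 0.37 (adjusted p = 0.00485, limma).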

How the data were processed

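RNA-seq of the 10 time-course libraries was analysed, with 2 replicates at each of 5 timepoints. Groups came from the sample labels. The authors trimmed reads with Skewer, quantified transcripts with Salmon 1.4.0 against GENCODE transcripts of GRCm38 with the transgene added, and summed them to genes with Tximport 1.12.3, and deposited TPM, which sum to 1000000 per library and carry no depth. The authors' table of fold changes and P values for 4 embryonic placode libraries was not used. The deposited TPM were tested here as log2(TPM + 1), a scale that understates changes of low genes, with limma 3.58.1 (R 4.3.3), 5 timepoint means, eBayes with trend and Benjamini-Hochberg adjustment over 13110 genes. The authors' own test of the time course needs counts and could not be run on TPM. Rows whose symbol was empty (96) or NA (2617) counted as unnamed.

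On simulated W12 and D0 data the step called 34% of 100 genes changed by 1 and 84% of 100 changed by 2 (log2). There were 4 false calls among 13110 genes. The changed genes had a D0 mean above 1 on the log2(TPM + 1) scale, and all others were left unchanged. These shares thus do not describe genes that were lower at D0, or a comparison in which many genes change. The labels give no link between same-numbered replicates of different timepoints, so no pairing was used. Positions are from GENCODE M21 and promoters from RefSeq. Python 3.11.15 with numpy 2.4.6, pandas 2.3.3 and matplotlib 3.10.9 did the rest.

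The W6 genes and the lists were chosen with earlier results of these data known, and the role groups and the E2F, CHR and CCAAT motifs after the genes were seen. Named were the 20 highest scores, the 10 highest at W6, genes on the lists, the 3 largest called changes per comparison, genes at the edge of the list, families and neighbours within 1 Mb. Others were named after their values were seen to show each role. Whether replicates were separate animals beyond the labels was not checked, so p-values measure the spread between these libraries. Alternatives tried were another pseudocount, filters, scalings and fits, each replicate left out, and changes to the score.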

Additional observations from a re-analysis of the deposited data

Results flagged for a closer look

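Neat1 lay on opposite sides of its D0 level at W2 and W12, although neither change from D0 was called. Both W2 libraries (30.6 and 27.7 TPM) were below both D0 libraries (59.7 and 34.2 TPM) and both W12 libraries (103 and 126 TPM) above them, a log2 change of -0.62 ± 0.51 at W2 and 1.31 ± 0.51 at W12 (adjusted p = 0.45 and 0.0651, limma). Without D0 replicate 2 the log2 changes from D0 were -1.01 at W2 and 0.92 at W12. The difference, W12 minus W2, was 1.93 ± 0.51, and it is given without a test since Neat1 was picked for it.

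Of the rows without a symbol, 9 had both W6 libraries above both D0 libraries and a score that would have placed them among the 100. The highest of them, ENSMUSG00000095280.1, was at 6.18 and 19.2 TPM at W6 and at most 1.54 TPM elsewhere, and is the ninth tested satellite-like model. Another, ENSMUSG00000098943.1, was at 336 TPM in both W6 libraries and between 59.5 and 198 TPM elsewhere.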

How the results depend on the processing

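The number of W6 genes called against D0 (15 at W1, 22 at W2, 31 at W12) was within 1.5 times under the other pseudocount, both scalings and the fit without trend. Testing all 38965 genes with a TPM above 0 left 6 at W1 and 13 at W2, a fit of 4 libraries left 5 at W1, and a mean of at least 5 TPM left 18 of 56 at W12. Leaving out 1 replicate gave 3 to 28 at W1, 10 to 36 at W2 and 19 to 48 at W12. Without W1 replicate 1 there were 6 and without W1 replicate 2 there were 3 at W1, without W2 replicate 1 there were 14 and without W2 replicate 2 there were 10 at W2, without W12 replicate 2 there were 19 at W12, and the highest values came without D0 replicate 1. Median-ratio scaling moved the share of higher among all W1 calls from 58.6% to 47.4%, and that of the W6 genes stayed at 80.0%. At W12 it moved the share over all genes from 41.7% to 50.3%, with 36 W6 genes higher and 0 lower.

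The replicate block, which only the replicate numbers of the labels define, gave 13, 21 and 28 calls. Deviations of same-numbered libraries at D0 and W1 had a correlation of -0.113, and with the D0 numbers crossed the block gave 15 calls.

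The list itself depended on the score. Of the 100 genes, 56 remained with a mean of at least 5 TPM, 61 with the mean of both W6 values in place of the lower, and 76 to 91 under the other pseudocount, scalings and definitions. Leaving out 1 replicate kept 35 to 97. Without W6 replicate 1, 35 remained, and without W6 replicate 2, 43, as the lower value of 2 then becomes 1 value. From D0, W1, W2 and W12 to W6 the 100 genes had median log2 changes of 1.95, 1.60, 1.26 and 1.24, and 2.60, 2.14, 1.46 and 1.39 with a pseudocount of 0.1. Median-ratio scaling gave 1.07 from W12.

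Of 18 replication genes outside the list, 8 to 18 were higher at W6 than at D0 and 0 to 2 than at W12 with 1 replicate left out, and of 21 mitosis genes 1 to 13 and 0 to 2. Median-ratio scaling left 1 mitosis gene higher than at W12. With D0 replicate 2 left out, 7 of 9 EpdSC markers were lower than at D0, and 6 of 12 ORS markers, 9 of 18 NRF2 genes and 5 of 20 lineage factors higher. These settings, the crossed block and the count without genes that passed the filter only through W6 (15, 22 and 28 calls) were chosen after seeing the data.

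Of 33 single changes (the 10 largest per comparison and all that fell), 19 were called under every alternative, 14 lost the call under at least 1 and 0 changed sign. Gstp1 lost its call at W1 under 8 of 18 alternatives (adjusted p up to 0.166) and at W2 under 11 of 18 (up to 0.189), Mybl2 at W1 under 9 of 18 (up to 0.166), and Scd2 at W1 under 5 of 18 (up to 0.107). Igfl3 and Gstp3 at W1 lost theirs without D0 replicate 2, among others. With 2 replicates per timepoint and no depth, smaller changes could not be resolved.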
